A study of Saccharomyces cerevisiae with 6 samples.

Results

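A set of 6 target genes of Rlm1, the transcription factor of the yeast cell integrity pathway, was followed in myo1Δ strains of Saccharomyces cerevisiae. They were PST1 (YDR055W), PRM5 (YIL117C), NCW2 (YLR194C), PAL2 (YHR097C), SVS1 (YPL163C) and DFG5 (YMR238W). The genes were found by gene name or systematic name among the spots of the arrays, which gave 6 of the 6256 genes measured and 10 of the 10263 gene spots. All 6 had a value on all 6 arrays. PST1, NCW2, PAL2 and DFG5 have 2 spots each, and PRM5 and SVS1 have 1. They lie on 6 different chromosomes, PST1 on IV, PAL2 on VIII, PRM5 on IX, NCW2 on XII, DFG5 on XIII and SVS1 on XVI.

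MYO1 encodes the heavy chain of the type II myosin of the contractile ring, and cells without it divide with a defective septum and a stressed cell wall. Wall stress activates a cascade of the kinases Pkc1, Bck1, Mkk1 or Mkk2, and Slt2, and Slt2 then phosphorylates Rlm1, a MADS-box factor that induces many genes for cell wall proteins and enzymes. The comparison therefore asks whether mRNA of the 6 targets was higher in cells lacking MYO1.

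Each of 6 Agilent oligonucleotide arrays was hybridized with labeled RNA of a myo1Δ strain in one dye and of a wild type strain in the other. Arrays 1 to 3 compared YJR13 (MATa myo1Δ::HIS5+) with YJR12 (MATα wild type), sister segregants of a cross of YJR6 with BY4741. Arrays 4 to 6 compared YJR6 (MATα myo1Δ::HIS5+) with the strain it was made from, MGD353-46D (MATα wild type). The labels place the mutant in the Cy5 channel of arrays 1, 3, 4 and 6 and in the Cy3 channel of the other 2. Mutant and wild type strains all carry trp1, ura3, leu2-3 and his3delta1 mutations with ADE+ and cyhR, and YJR12 is also ARG+. Cultures were grown overnight at 26°C in CSM or in medium without histidine, and only the mutants carry HIS5+. Medium and deletion cannot be told apart where they differ between the strains of an array. In the YJR13 pair, mating type and any other loci at which the segregants differ cannot be told apart from the deletion either. Cultures were described as biological triplicates of each strain, and YJR13 inherited its deletion from YJR6, so both pairs carry 1 disruption of MYO1.

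All values below are log2 ratios of myo1Δ over wild type, so that 1 is a doubling, after background correction and loess normalization within each array. MYO1 itself served as the check of the labels. Its log2 ratios ranged from -3.53 to -1.45 and were below 0 on all 6 arrays (mean -2.17, SE 0.29, adjusted p = 0.00466 in limma, and under 0.05 in all 19 alternatives). Array 3 stood apart from the rest. Across genes its ratios correlated with those of other arrays at r of 0.146 to 0.477, against 0.548 to 0.771 among the other 5 arrays, so values without array 3 are given for each member. Each pair of arrays (1 and 2, 3 and 4, 5 and 6) shared a slide.

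Of the 6 genes, limma called PAL2 alone up regulated in the mutants at an adjusted p of 0.01, and it called 0 down regulated. At an adjusted p of 0.05 the counts were still 1 and 0, and at an unadjusted p of 0.05 they were 1 (PAL2) and 1 (SVS1). Among all genes 3.47% were called higher and 3.96% lower at 0.01, and 14.2% higher and 12.9% lower at 0.05. The median log2 ratio of the 6 genes was 0.24, beside 7.85e-04 for all genes, but it was 5.51e-05 without array 3, 0.10 without array 1 and 0.07 with a term for the dye. Their median absolute log2 ratio was 0.641, against 0.324 for all genes, and their median SD over the arrays was 0.758 against 0.433. All 6 were above the median intensity, so these comparisons with all genes were not matched for brightness. In a fit of the 3128 genes above that intensity, limma called 12.2% higher at an adjusted p of 0.01 and 23.0% at 0.05. PAL2 was again the single member called higher there.

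**Figure D1:**
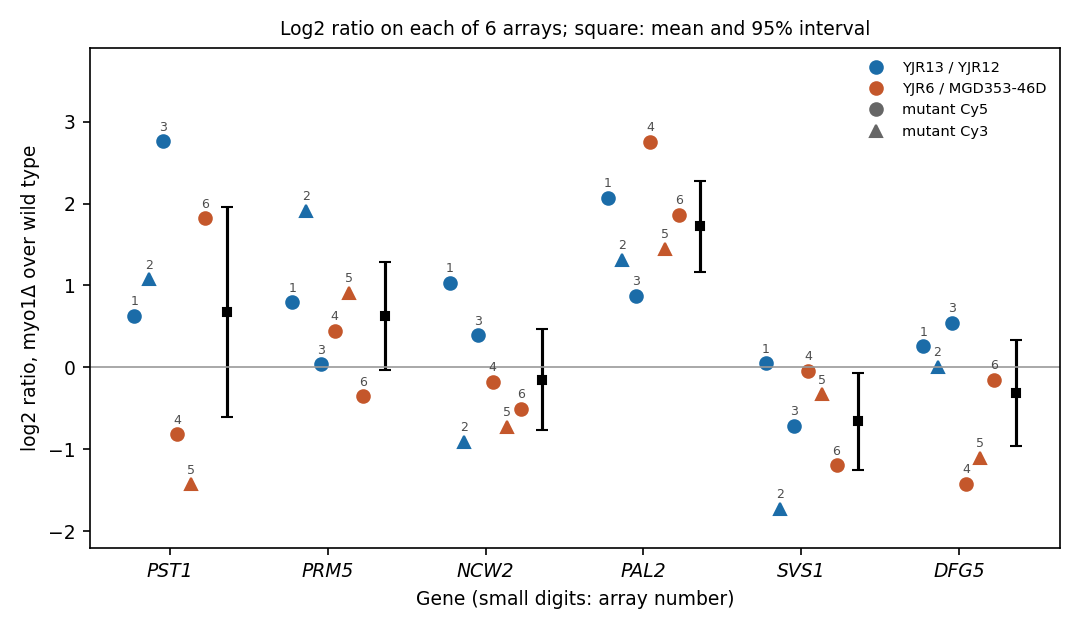
Log2 ratio of myo1Δ over wild type (y axis) of the 6 genes (x axis) on each array, with circles where the mutant carried Cy5, triangles where it carried Cy3, blue for the YJR13 pair, orange for the YJR6 pair and black squares for the mean with its 95% interval. All 6 points of PAL2 lie above 0, between 0.87 and 2.76, while the points of each other gene lie on both sides of 0.

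PAL2 encodes a protein of clathrin-mediated endocytosis and is the paralog of PAL1. Its log2 ratios on arrays 1 to 6 were 2.07, 1.31, 0.87, 2.76, 1.45 and 1.86. All 6 arrays were above 0, the lowest being array 3 and the highest array 4. The mean was 1.72, a rise of 3.30-fold (SE 0.24, 95% interval 1.16 to 2.28, n = 6 arrays, adjusted p = 0.00476 in limma). Of all genes with a value on every array, 14.2% were higher on all 6, and PAL2 ranked between the percentiles 91.5 and 98.0 of each array's genes.

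PAL2 was above 0 on every array of both strain pairs, though YJR13 on its own did not pass the test. The mean was 1.42 for YJR13 over YJR12 (SE 0.32, 95% interval 0.65 to 2.19, adjusted p = 0.0753 in limma) and 2.02 for YJR6 over MGD353-46D (SE 0.32, 95% interval 1.25 to 2.79, adjusted p = 0.0189). At an adjusted p of 0.05 the share of all genes called higher was 0.576% for YJR13 and 9.94% for YJR6. The difference between pairs was -0.60 (95% interval -1.69 to 0.49, adjusted p = 0.810) and did not pass the test. A slide block, which leaves only the shared slide of arrays 3 and 4 to set the pairs apart, gave a difference of -1.88 (unadjusted p = 0.0226, adjusted p = 0.403), and without array 4 it was -0.24. The 3 slides gave means of 1.69, 1.81 and 1.65. A slide block cannot move the mean, as every slide held the same number of arrays, and with it the adjusted p was 0.0252 in limma. Without array 3 the mean was 1.89 (SE 0.22, adjusted p = 0.00421). The call at 0.01 was lost in 9 of 20 alternatives, among them those without arrays 1, 2, 4, 5 and 6 (adjusted p = 0.0165, 0.0182, 0.0119, 0.0116 and 0.0196), and the adjusted p was under 0.05 in all 20.

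The spots of PAL2 were dim in wild type cells. In the wild type channel they were 1.21 to 2.35 times the local background, and in the mutant channel 2.60 to 7.69 times. The mutant channel was the brighter one at both spots on all 6 arrays. The 2 spots of PAL2 had the same sign on 6 of 6 arrays, with a median difference of 0.27 on the log2 scale and a largest difference of 1.02. The size of the rise moved with the background correction, from 1.20 with none (adjusted p = 0.0139) to 2.24 with an offset of 0 (adjusted p = 4.19e-04).

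**Figure D2:**
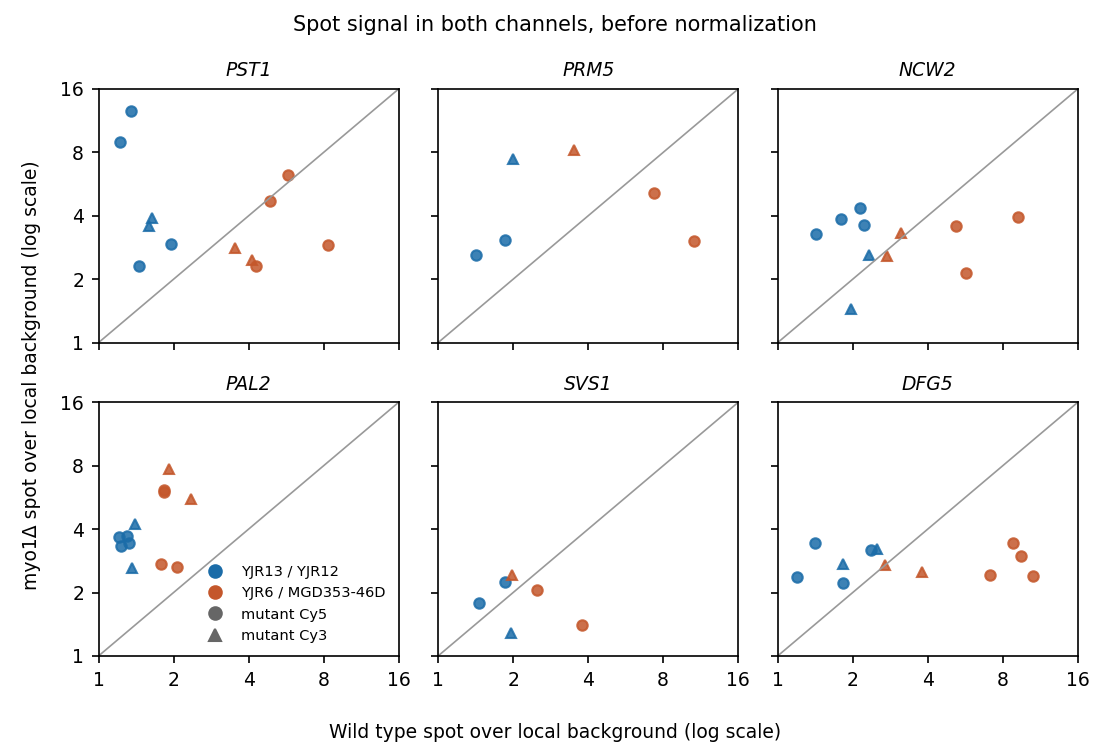
Mean signal over local background of each spot before normalization, with the wild type channel on the x axis and the myo1Δ channel on the y axis, both on log scales, and the line of equal signal in grey (colors and symbols by strain pair and dye). Every PAL2 spot lies above the line with a wild type signal of at most 2.35. DFG5 spots have a mutant signal of 2.23 to 3.44 and a wild type signal of 1.19 to 10.6. Signals are not corrected for the brightness of each channel as a whole, which differed between arrays.

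PST1 encodes a GPI-anchored cell wall protein of the ECM33 family and is known for its induction by wall stress. Its log2 ratios on arrays 1 to 6 were 0.63, 1.08, 2.76, -0.82, -1.42 and 1.82. It was higher on arrays 1 to 3, those of YJR13, and on array 6, and lower on arrays 4 and 5 of the YJR6 pair. The mean was 0.67 (SE 0.54, 95% interval -0.61 to 1.95, adjusted p = 0.392 in limma), which did not pass the test. The array with the highest value was array 3, and without it the mean was 0.26 (SE 0.49, adjusted p = 0.735), against 1.09 without array 5 and 0.44 without array 6.

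The spread of PST1 lay between arrays. Its SD over the arrays was 1.58, while its 2 spots differed by a median of 0.26 and shared their sign on 6 of 6 arrays. Among the genes of an array PST1 ranked from the percentile 3.74 on array 5 to 99.6 on array 3. Its mutant signal was 2.31 to 12.6 times background and its wild type signal 1.22 to 8.31 times. The pair means were 1.49 for YJR13 (SE 0.69, adjusted p = 0.276) and -0.14 for YJR6 (SE 0.69, adjusted p = 0.905), and their difference of 1.63 had a 95% interval of -0.73 to 3.99 (adjusted p = 0.756). That difference was 3.58 with the slide as a block, and from 0.99 to 2.61 with each array left out.

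NCW2 encodes another GPI-anchored wall protein. On arrays 1 to 6 its log2 ratios were 1.03, -0.90, 0.39, -0.17, -0.73 and -0.50. Arrays 1 and 3 were above 0 and the other 4 below. The mean of -0.15 did not pass the test (SE 0.26, 95% interval -0.77 to 0.47, adjusted p = 0.718 in limma), and without array 3 it was -0.26 (adjusted p = 0.551). On array 6 it rests on 1 spot, as the other was marked poor and left out. The mean has no settled sign, since it was 0.02 after scaling between arrays and 0.0034 without array 2. The pair means were 0.17 for YJR13 and -0.47 for YJR6 (difference 0.64, 95% interval -0.58 to 1.86, adjusted p = 0.819).

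SVS1 encodes a wall protein rich in serine and threonine that is needed for resistance to vanadate. Its log2 ratios on arrays 1 to 6 were 0.05, -1.72, -0.71, -0.04, -0.33 and -1.20. Array 1 was just above 0 and the other 5 below. The mean of -0.66 (SE 0.25, 95% interval -1.25 to -0.07) gave an unadjusted p of 0.0329 and an adjusted p of 0.0917 in limma, so it was not called. Without array 3 the mean was -0.65 (adjusted p = 0.146), and over the arrays left out in turn it ran from -0.80 without array 1 to -0.44 without array 2. Its single spot was 1.28 to 2.44 times background in the mutant channel and 1.45 to 3.77 times in the wild type channel. The pair means were -0.80 for YJR13 and -0.52 for YJR6, with a difference of -0.28 (95% interval -1.55 to 1.00, adjusted p = 0.944).

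DFG5 encodes a GPI-anchored mannosidase-like protein that acts with its relative Dcw1 in attaching other GPI proteins to the wall. Its log2 ratios on arrays 1 to 6 were 0.26, 0.01, 0.54, -1.42, -1.10 and -0.15. The 3 arrays of the YJR13 pair were above 0, array 2 only just, and the 3 of the YJR6 pair below. The mean over all arrays was -0.31 (SE 0.28, 95% interval -0.96 to 0.34, adjusted p = 0.441 in limma), and it was -0.48 without array 3 (adjusted p = 0.239), -0.15 without array 5 and -0.09 without array 4. DFG5 was the single member whose strain pairs did not overlap, as was also the case in 12.7% of all genes.

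The pair means of DFG5 were 0.27 for YJR13 (95% interval -0.36 to 0.90, adjusted p = 0.620) and -0.89 for YJR6 (SE 0.26, 95% interval -1.52 to -0.26, adjusted p = 0.0615). Their difference was 1.16 (SE 0.37, 95% interval 0.27 to 2.06) with an unadjusted p of 0.0189, and it did not pass the test across all genes (adjusted p = 0.554). A slide block gave a difference of 1.96 (adjusted p = 0.409). Before normalization the mutant signal of its spots was 2.23 to 3.44 times background, and the wild type signal reached 10.6 times. The wild type channel as a whole was also brighter on arrays 4 and 6. Its median gene spot was 2.55 and 2.31 times background there, against 1.31 and 1.22 on arrays 1 and 3. These signals therefore do not show in which strain DFG5 differed. The 2 spots had a median difference of 0.49 and shared their sign on 4 of 6 arrays. Array 3 and array 4 come from different pairs on 1 slide, and there DFG5 was 0.54 and -1.42.

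**Figure D3:**
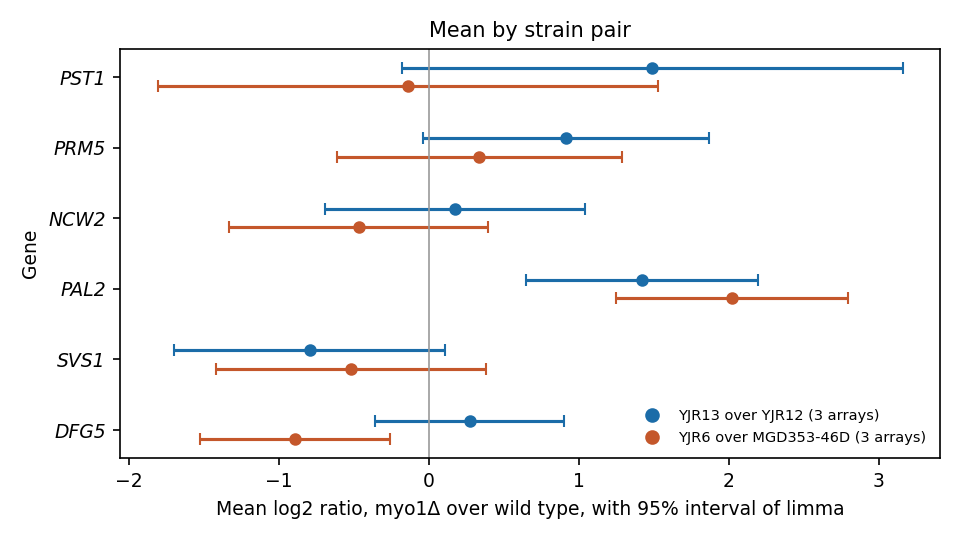
Mean log2 ratio of myo1Δ over wild type (x axis) of each gene (y axis) in the YJR13 pair (blue) and the YJR6 pair (orange), each over 3 arrays with the 95% interval of limma. The intervals of PAL2 lie above 0 in both pairs (0.65 to 2.19 and 1.25 to 2.79), and that of DFG5 in the YJR6 pair lies below 0 (-1.52 to -0.26).

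PRM5 encodes a membrane protein whose transcription responds to pheromone as well as to wall stress. Its log2 ratios on arrays 1 to 6 were 0.79, 1.91, 0.04, 0.45, 0.91 and -0.35. Array 6 was below 0, array 3 was close to it, and arrays 2 and 5, in which the mutant carried Cy3, were the 2 highest. The mean was 0.62, or 1.54-fold (SE 0.28, 95% interval -0.03 to 1.28, adjusted p = 0.138 in limma), 0.74 without array 3 (adjusted p = 0.117) and 0.37 without array 2 (adjusted p = 0.268). It averaged 1.41 on the arrays with the mutant in Cy3 and 0.23 on those with the mutant in Cy5. A model with a term for the dye gave a mean of 0.82 (SE 0.21, adjusted p = 0.0389), the single alternative under which PRM5 passed 0.05. The pair means were 0.91 for YJR13 (adjusted p = 0.247) and 0.34 for YJR6 (adjusted p = 0.588), and their difference of 0.58 had a 95% interval of -0.77 to 1.93.

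The other 5 members ran the other way. With the mutant in Cy5 and in Cy3 the means were 1.89 and 1.38 for PAL2, 1.10 and -0.17 for PST1, 0.19 and -0.82 for NCW2, -0.47 and -1.03 for SVS1, and -0.19 and -0.55 for DFG5. With the dye term the means of these 5 genes kept their sign and their side of 0.05. All 59 usable spot values of the 6 genes were brighter, in both channels, than the 95th percentile of their array's negative controls, and 0 were saturated.

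Arrays differed in how many of the 6 genes were higher in the mutant. On arrays 1 to 3 the numbers were 6, 4 and 5, and on each of arrays 4, 5 and 6 it was 2. The median of the 6 genes was 0.71, 0.54 and 0.47 on arrays 1 to 3 and -0.11, -0.53 and -0.25 on arrays 4 to 6. PAL2 was among the higher genes throughout, joined in the YJR6 pair by PRM5 on arrays 4 and 5 and by PST1 on array 6. For all 6 members the difference between pairs missed the threshold of 0.05 in limma, with adjusted p-values between 0.554 and 0.944, and DFG5 alone had an unadjusted p under 0.05.

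The genes of the pathway itself were examined from a list of 9, comprising the kinases, Rlm1 and the phosphatases of Slt2. None was called at 0.01, 2 were higher at 0.05, 0 were lower, and the median was 0.13. Of all genes 14.2% were higher and 12.9% lower at 0.05. The 2 called were SLT2, the MAP kinase, and PTP2, a phosphatase that acts on Slt2 and on Hog1. SLT2 had log2 ratios of 0.95, 1.60, 0.73, 0.22, 0.41 and 0.74, above 0 on all 6 arrays, with a mean of 0.77 or 1.71-fold (SE 0.18, adjusted p = 0.0222 in limma). The adjusted p of SLT2 in limma was over 0.05 with median normalization (mean 0.54, 0.189), without array 1 (0.0606) and without array 6 (0.0583). It was also over 0.05 when the spot with the larger p was taken on its own (mean 0.46, 0.226). PTP2 had log2 ratios of 1.50, 0.99, 0.23, 1.52, 0.29 and 1.54, also all above 0, with a mean of 1.01 (SE 0.22, adjusted p = 0.0194), and its adjusted p was over 0.05 with the slide as a block (0.0528) and without array 1, 2, 4 or 6 (0.0523 to 0.0565). RLM1, the gene of the factor itself, averaged 0.09 (95% interval -0.21 to 0.39, adjusted p = 0.646). PKC1, BCK1, MKK1, MKK2, MSG5 and SDP1, the other genes of the list, averaged from -0.07 to 0.67 and were not called.

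A list of 11 further genes, known elsewhere as targets of the pathway, was also counted. At 0.01, 1 rose and 0 fell, and at 0.05, 3 rose and 1 fell, with a median of 0.11. The shares of all genes were 3.47% higher and 3.96% lower at 0.01, and 14.2% and 12.9% at 0.05. SED1, an abundant GPI wall protein, had log2 ratios of 1.98, 3.09, 2.62, 1.75, 1.18 and 0.81, all above 0, and rose by 1.91 or 3.75-fold (SE 0.30, adjusted p = 0.00699 in limma). The adjusted p of SED1 was 0.0118 to 0.0240 with each array left out in turn, so this call needed all 6. The remaining calls at 0.05 were named after their values were seen. The PIR-family wall protein PIR3 rose by 3.05 (SE 0.57, adjusted p = 0.0114) and BGL2, a glucan-modifying enzyme of the wall, by 1.06 (SE 0.20, adjusted p = 0.0125, and 0.319 with median normalization). CIS3, another PIR protein, fell by 1.97 (SE 0.41, adjusted p = 0.0166, and 0.0508 to 0.0534 without array 2, 4 or 6), and all 3 had 1 sign on all 6 arrays. The genes not called were CRH1, CWP1, HSP150, PIR1, FKS1, CHS3 and KDX1, whose means ran from -0.53 to 0.25.

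The 7 relatives of the members gave no call at 0.01, and at 0.05 there were 0 higher and 2 lower, beside 14.2% and 12.9% of all genes. ECM33, the paralog of PST1, had log2 ratios of -0.98, -1.47, -0.82, -1.61, -2.22 and -0.42, and its mean of -1.25 was a fall (SE 0.23, adjusted p = 0.0110 in limma). SRL1, the paralog of SVS1, averaged -0.88 (SE 0.21, adjusted p = 0.0225, and 0.0698 without array 2 or 0.0544 without array 6). Both were below 0 on all 6 arrays, as were 13.9% of all genes. PAL1, the paralog of PAL2, averaged -0.41 (SE 0.18, 95% interval -0.83 to 0.02, adjusted p = 0.133), DCW1, that of DFG5, -0.10 (adjusted p = 0.731), and YNL058C, that of PRM5, -0.45 (adjusted p = 0.156). Whether members and their paralogs differed was not tested. SPS2 and SPS22, of the same family as PST1, averaged 0.03 and 0.50 (adjusted p = 0.819 and 0.0524).

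**Figure D4:**
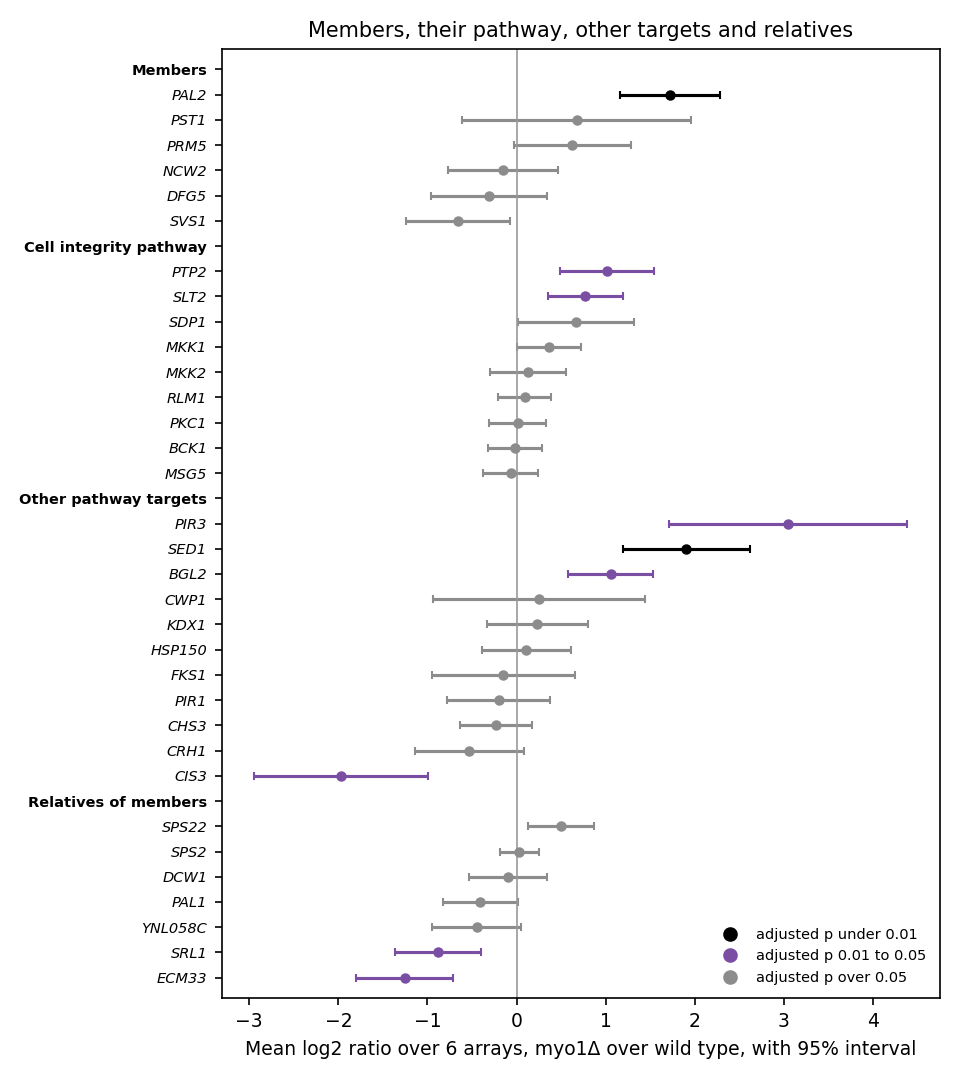
Mean log2 ratio of myo1Δ over wild type with its 95% interval over 6 arrays (x axis) for the members, the pathway genes, other targets and relatives of members (y axis), in black for an adjusted p under 0.01, purple for 0.01 to 0.05 and grey for others. PAL2 (1.72) and SED1 (1.91) are the 2 black points, and the purple points below 0 are CIS3 (-1.97), ECM33 (-1.25) and SRL1 (-0.88).

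The genes next to the members on the chromosome were examined, since spots can pick up RNA of a neighbor. Of 12 neighbors, 0 were called at 0.01 in limma, and 2 were higher and 0 lower at 0.05, beside 14.2% and 12.9% of all genes. The means of 11 were within 1 of 0 on the log2 scale. Of the calls at 0.05, CDC34, a ubiquitin-conjugating enzyme gene beside PST1, was named after its values were seen. It averaged 0.71 (adjusted p = 0.0291) and was above 0 on all 6 arrays. The other was HXT5 (YHR096C), a hexose transporter gene beside PAL2, whose ratios ran 4.08, 5.39, -0.53, 7.12, 6.07 and 4.69 over the arrays. It was far above 0 on 5 arrays and below 0 on array 3, with a mean of 4.47 (SE 0.91, adjusted p = 0.0153), 5.47 without array 3 (adjusted p = 0.00247) and 4.28 without array 2 (adjusted p = 0.0515). Both genes had their lowest value on array 3 (-0.53 for HXT5 and 0.87 for PAL2). Both had their highest on array 4 (7.12 and 2.76). SFB3, the neighbor on the other side, averaged -0.22 (adjusted p = 0.238). Whether RNA of HXT5 reached the PAL2 spots was not tested here. The paper also reported YHR097C (PAL2) as up regulated by real time RT-PCR.

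**Figure D5:**
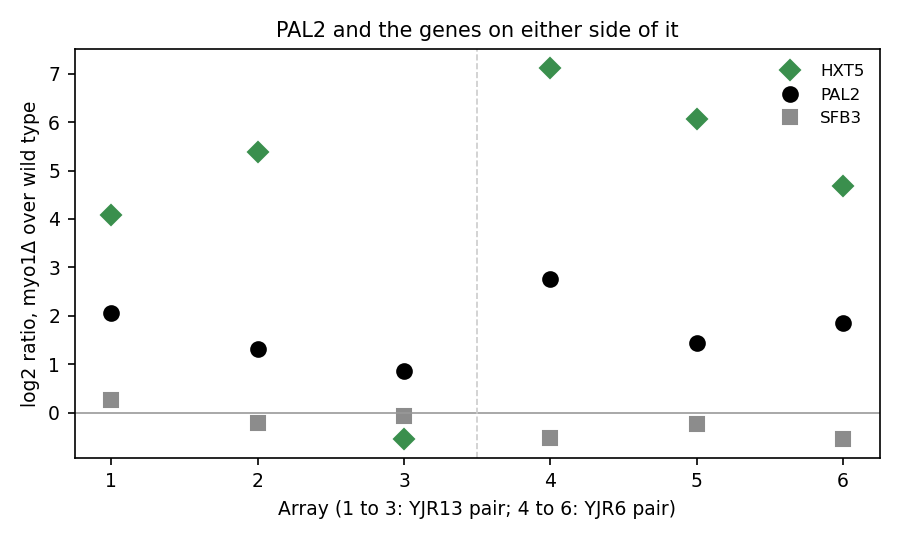
Log2 ratio of myo1Δ over wild type (y axis) on each array (x axis) for PAL2 and the genes on either side of it, with the strain pairs parted by a dashed line. PAL2 stays between 0.87 and 2.76 while HXT5 runs from -0.53 to 7.12 and SFB3 stays near 0.

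For each member the 2 genes with the most similar log2 ratios were taken by root mean square difference over the 6 arrays, among 6164 genes. For PAL2 these were ATH1, the acid trehalase (difference 0.350), and FPS1, the glycerol channel (0.364). Both were up regulated, ATH1 by 1.80 (adjusted p = 0.00622 in limma) and FPS1 by 1.48 (adjusted p = 0.00999). Means near that of PAL2 follow from how these genes were picked and are no separate result. For PST1 they were the peroxiredoxin TSA2 (0.575) and CHO2, a methyltransferase of phosphatidylcholine synthesis (0.602). These differences were the largest listed, and PST1 also had the largest SD over the arrays of the 6 members (1.58). The measure was not scaled by that SD. For DFG5 they were YMR099C, a hexose-phosphate mutarotase (0.175), and NFS1, the cysteine desulfurase (0.234). The nearest to PRM5 were the ubiquitin ligase RSP5 (0.177) and the cytochrome c heme lyase CYC3 (0.212). NCW2 was nearest to SAM35 (0.289), of the mitochondrial outer membrane, and the kinase STE20 (0.304), and SVS1 to CHA1, a serine and threonine deaminase (0.355), and CSM3, of the replication checkpoint (0.371). These likenesses are descriptions over 6 arrays, with no test.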

How the data were processed

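The authors scanned 6 arrays, each with myo1Δ and wild type RNA, and quantified them with ImaGene (6.0.0 by the file headers); the deposited files give spot mean and local background median intensity in scanner units. Per the authors' methods, limma was used for background correction, lowess within arrays and empirical Bayes tests. The deposited log2 ratios (Cy5 over Cy3) were used only as an alternative.

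Here, with R 4.3.3 and limma 3.58.1, background was corrected by normexp (offset 50) and ratios by loess within arrays. Control spots (544) and poor spots (flag 3, 32 to 192 per array) had no weight, and poor spots were left out. Ratios were turned to myo1Δ over wild type and averaged per gene (6256 genes). The mean was tested against 0 with lmFit and eBayes, and a second fit gave each strain pair and their difference. The Benjamini-Hochberg adjustment ran over all genes, with thresholds of 0.01 and 0.05. Errors are moderated SEs, and the number of arrays limits the precision.

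The 6 members, the lists and the tests were chosen with earlier results of these data known. Genes named are the members, MYO1, list genes called at 0.01 (or the 2 with the smallest p), neighbors called or past 1 on the log2 scale, and the 2 genes most like each member. Other genes of the lists are given after their values were seen. Symbols came from the RefSeq gene table by systematic name for 5756 genes, and 500 kept their array names. The method was tested on simulated data. Alternatives covered background correction, normalization, spot flags, dim genes, dye, slide, array position, strain pair, single spots, the deposited ratios and each array left out. For single spots, spots were tested separately and the one with the largest p was kept for each gene. Promoter sequences were not analysed here.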

Additional observations from a re-analysis of the deposited data

Results flagged for a closer look

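The difference between strain pairs of DFG5 was 1.16 on the log2 scale. It is given here because all 3 arrays of the YJR13 pair were above 0 and all 3 of the YJR6 pair below. Arrays 2 (0.01) and 6 (-0.15) were nearest to 0, and on both the 2 spots of DFG5 had opposite signs. The test of the difference gave an unadjusted p of 0.0189 and an adjusted p of 0.554 in limma, and its value was 0.84 to 1.96 over 18 alternatives, with adjusted p-values of 0.298 to 1.00. A check for single arrays far from the other 5 in the 16 genes named with values on every array found none.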

How the results depend on the processing

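PAL2 was higher under all 20 alternatives, with adjusted p-values in limma of 4.19e-04 to 0.0252, all under 0.05. Its call at 0.01 was lost with no background correction (1.20), with a dye effect (1.64) and with the slide as a block (1.72). It was also lost with single spots (1.55), where only the spot with the larger p was kept. In each of these 4 the count of members at 0.01 was 0. It was also lost without arrays 1, 2, 4, 5 and 6, one at a time, where fewer arrays were tested. With each array left out in turn the mean was 1.51 to 1.89 and the count 0 to 1. At 0.05 the count was 2 with a dye effect (PAL2 and PRM5) and 1 otherwise. NCW2 changed sign after scaling between arrays (0.017), and with each array left out it ran from -0.38 to 0.0034 (without array 2). The difference between pairs changed sign for PAL2 after scaling between arrays (0.25) and for PRM5 with the slide as a block (-0.41). For SVS1 it ran from -0.70 to 0.19 with each array left out. The cause was not tested. PST1, PRM5, SVS1 and DFG5 kept their direction and stayed above 0.01 in all 20. The slide, array position and strain pair blocks and the fit of genes above the median intensity cannot move a gene's mean over all arrays. In those alternatives only the p-values could change, for PAL2 and the other genes as well. SED1 stayed under 0.05 in all 20 and lost its call at 0.01 in 12. SLT2 was under 0.05 in 16 of 20, and PTP2 in 15. Each ratio already pairs a mutant with a wild type on the same array. Arrays of the different strain pairs share no replicate number and were not matched to each other. Slide and array position were used as blocks instead. The number of arrays limits what could be called, and the wild type spots of PAL2 and the spots of SVS1 were dim.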

Other observations

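The deposited table of log2 ratios numbers its rows from 1 to 10807, and these rows run in the order of the spots in the quantification files. Values recomputed from the spot intensities matched in that order to within 4.74e-08. The platform annotation uses the same numbers for the design numbers of the spots. Of 9202 annotated numbers, 9170 had the gene symbol of the spot with that design number, and 5 had that of the spot in that row. Joined by number, the deposited and recomputed ratios correlated at r of -0.00975 to 0.0254. For PAL2 the mean log2 ratio of the deposited values was 1.73 by spot order and -0.10 by number, and for PRM5 it was 0.64 and -1.52. Values of the other members by spot order and by number were 0.68 and 0.52 for PST1, -0.08 and 0.17 for NCW2, -0.65 and -0.28 for SVS1, and -0.31 and 0.44 for DFG5. All values in the text above come from the quantification files, in which each spot carries its own gene name.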
